A study of Homo sapiens with 4 samples.

Results

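The peaks described here come from 1 of 2 peak lists for the transcription factor USF1 and lie in a single stretch of chromosome 5. List 1 was called from the first immunoprecipitation (IP 1) against the first input, and list 2 from the second (IP 2) against the second input. A list 1 peak was taken when it overlapped no list 2 peak by 1 bp or more and had its centre between 10 and 50 Mb of chromosome 5 (GRCh38), on the short arm and up to the centromere. This gave 1262 peaks of the 14300 in list 1. Over the whole genome 8964 list 1 peaks (62.7%) overlapped no list 2 peak, so the region held 14.1% of them. The peaks were thus chosen by measured values, the list 1 and list 2 peak calls, together with their position. The window itself was chosen because peaks of this kind are dense there, so their number, density and close spacing restate that choice. These and the list 1 values of the peaks are given as a description, with no test.

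All 4 libraries (IP 1, IP 2, input 1 and input 2) were made from Huh7, an established human hepatocellular carcinoma line made to overexpress USF1, as the series' design text states. Chromatin was crosslinked with formaldehyde, sonicated and precipitated with an anti-FLAG antibody, and input is the same kind of chromatin without precipitation. The labels number the replicates without saying if these were separate cultures. Neither an IgG precipitation nor untagged cells entered the comparison here. After removal of duplicates the libraries held 43562726 to 47165647 tags (sequenced fragments counted once per position). Each value of a single peak below (tag count, fold over input, score, false discovery rate) is the authors' own. One IP library stands behind the tag counts of list 1, so there is no spread between replicates to set beside them. Intervals treat the peaks of a list as independent, though neighbours often lie close together, and cover no spread between replicates.

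USF1 is a basic helix-loop-helix leucine zipper protein that binds DNA as a dimer at the E-box, whose best-known form is CACGTG, often close to the start sites of genes. In liver it is known for its part in genes of lipid and glucose metabolism. A peak caller slides along the genome and reports stretches where IP tags exceed what the input and the surroundings lead it to expect, so a peak depends on the IP and on the input together.

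RefSeq's promoter table (GRCh38.p14) holds 277 windows in the region, each running from 250 bases before to 50 after a start site. The peaks overlapped 4 of them, and each belongs to a non-coding transcript. None of the 144 windows of protein-coding genes was touched. The 4 are printed because they are the only annotated starts that the peaks reach. They are LINC02239 (chr5:24840534-24840833, minus strand), LOC124900955 (chr5:32925777-32926076, minus strand), LOC124900959 (chr5:34869411-34869710, minus strand) and LINC02104 (chr5:39520181-39520480, plus strand). Sequences run 5′ to 3′, and capitals mark each CANNTG, the general E-box form, which reads the same on both strands and includes CACGTG.
LINC02239: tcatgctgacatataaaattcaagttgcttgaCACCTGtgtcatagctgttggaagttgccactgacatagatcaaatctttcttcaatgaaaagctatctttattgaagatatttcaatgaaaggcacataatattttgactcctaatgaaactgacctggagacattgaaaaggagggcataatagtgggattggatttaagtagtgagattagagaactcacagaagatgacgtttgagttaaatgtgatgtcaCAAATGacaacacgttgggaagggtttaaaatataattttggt
LOC124900955: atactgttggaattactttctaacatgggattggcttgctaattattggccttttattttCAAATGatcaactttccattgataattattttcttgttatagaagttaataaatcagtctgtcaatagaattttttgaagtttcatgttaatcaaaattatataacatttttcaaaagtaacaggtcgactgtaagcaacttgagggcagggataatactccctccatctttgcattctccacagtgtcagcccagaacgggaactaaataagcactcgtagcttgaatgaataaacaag
LOC124900959: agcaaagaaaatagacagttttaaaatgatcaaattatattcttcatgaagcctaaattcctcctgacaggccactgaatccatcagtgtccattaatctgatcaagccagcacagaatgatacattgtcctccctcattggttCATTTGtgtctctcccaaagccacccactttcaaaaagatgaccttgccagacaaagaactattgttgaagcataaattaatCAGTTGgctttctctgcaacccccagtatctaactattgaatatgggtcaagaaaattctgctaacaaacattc
LINC02104: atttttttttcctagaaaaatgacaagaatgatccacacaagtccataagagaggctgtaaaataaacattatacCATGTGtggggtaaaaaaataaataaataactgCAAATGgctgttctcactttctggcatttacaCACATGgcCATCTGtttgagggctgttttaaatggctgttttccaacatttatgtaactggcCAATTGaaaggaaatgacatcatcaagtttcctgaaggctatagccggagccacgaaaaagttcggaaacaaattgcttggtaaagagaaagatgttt

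The letters CACGTG are in none of the 4 windows, while 13 of the region's 277 windows (4.69%) and 7.26% of the table's 35116 windows hold them. At such shares 4 windows are too few for their absence to say anything. CANNTG occurs 2 times in LINC02239, 1 time in LOC124900955, 2 times in LOC124900959 and 5 times in LINC02104, and 68.7% of all windows hold it at least 1 time. G and C make up 33.0% to 38.0% of the 4 windows, with no share of all windows to set beside this. Over the whole table, windows overlapped by any list 1 only peak held CACGTG in 7.37% of 814 cases (5.77 to 9.37%, 95% Wilson interval). Those overlapped by a shared list 1 peak held it in 27.0% of 3036 cases (25.5 to 28.6%). Inside the region shared list 1 peaks overlapped 5 windows, at DNAJC21, LIFR, LIFR-AS1 and LOC124900961, again with no CACGTG. A match, or its absence in these 300 bases, describes letters only. The 4 peaks themselves carried 73 to 173 tags at 3.65-fold to 4.54-fold, and their summits lay 83 to 802 bp from the start site.

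Along the region the peaks were packed 8.39 times as densely as list 1 only peaks on the rest of chromosome 5, at 31.6 per Mb against 3.76 per Mb (532 peaks). The region was chosen for its density, so this ratio describes the choice. Other kinds of peak in the same 40 Mb showed no excess of that size. Shared list 1 peaks stood at 2.6 per Mb there and 1.94 per Mb on the rest of the chromosome (ratio 1.34). List 2 peaks stood at 10.6 and 11.6 per Mb (ratio 0.914). The second value pools 21.1 per Mb below 10 Mb with 10.9 per Mb past 50 Mb. All densities of the region count 47 to 50 Mb, where neither list had a peak. Of the 1366 list 1 peaks of the region, 92.4% (90.9 to 93.7%, Wilson) overlapped no list 2 peak, against 59.6% (58.7 to 60.4%) of those elsewhere. From the side of list 2, 105 of its 425 peaks in the region (24.7%, 20.8 to 29.0%) overlapped list 1, against 19.5% (19.0 to 19.96%) elsewhere. The rule used this overlap and the window was chosen for such peaks, so the list 1 share restates that choice. The region held 1366 list 1 peaks but 425 list 2 peaks, so the shares also have unlike bases. On the 22 other chromosomes list 1 only peaks ranged from 0.75 per Mb on chromosome 21 to 5.46 per Mb on chromosome 11, with a median of 2.09.

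**Figure D1:**
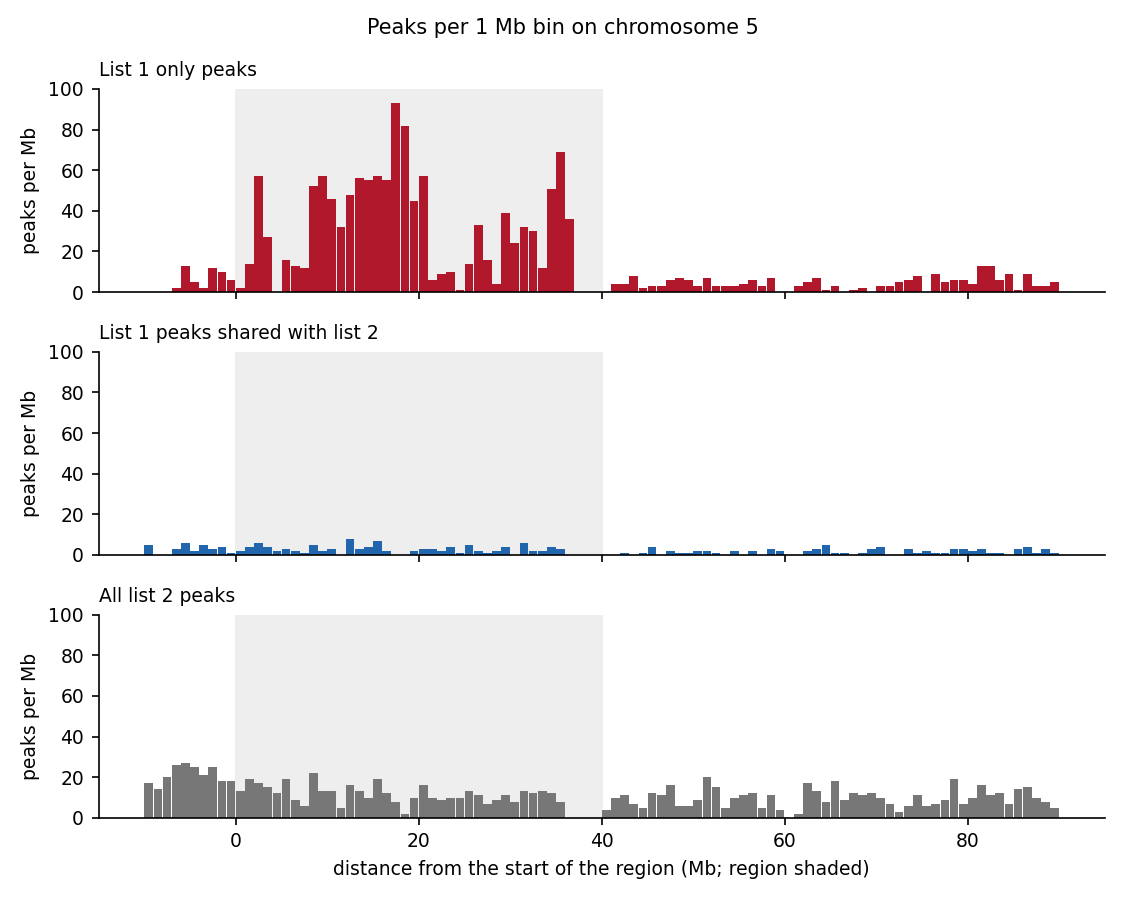
Peaks per 1 Mb bin along chromosome 5, by distance from the start of the region (Mb, region shaded), for list 1 only peaks (top), shared list 1 peaks (middle) and all list 2 peaks (bottom), all on one vertical scale. List 1 only peaks reach 93 in a bin inside the region and at most 13 in a bin outside it, while list 2 bins hold at most 27.

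The density was uneven within the region, and its outline was set by a few blocks. The median 1 Mb bin held 31 peaks, against 3 outside the region. The 3 highest bins, at 27 to 28 Mb (93 peaks), 28 to 29 Mb (82) and 45 to 46 Mb (69), held 19.3% of all the peaks. A bin was called dense at 9 peaks or more, which is 3 times the median bin outside. By that measure 32 of the 40 bins were dense, against 9 of 142 bins on the rest of the chromosome, where no bin passed 13. The dense bins formed 5 blocks. The largest ran from 15 to 31 Mb with 776 peaks (48.5 per Mb), and the next from 39 to 47 Mb with 293 (36.6 per Mb). Smaller blocks lay at 11 to 14 Mb (98 peaks), 35 to 38 Mb (63) and 32 to 34 Mb (19). Between the blocks, the bin at 14 to 15 Mb held no such peak although list 2 had 12 there.

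Genome-wide, 32 bins held 20 or more list 1 only peaks, and 23 of them lay in the region. The other 9 were 8 bins of chromosome 11, between 25 and 30 Mb and between 96 and 101 Mb, and 1 bin of chromosome 9 at 9 to 10 Mb. The highest of these, at 97 to 98 Mb of chromosome 11, held 47 peaks. Its median width (799 bp) and tag density (56.9 tags per kb) were below those of the densest bin of the region (1120 bp and 58.1 tags per kb). Other bins overlapped in both. Chromosome 11 at 26 to 27 Mb had 914.5 bp and 58.0 tags per kb, and the region's bin at 26 to 27 Mb had 881 bp and 53.8.

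The 2 ends of the region differed. Toward the tip of the short arm list 1 only peaks went on at 5.0 per Mb below 10 Mb (50 peaks), with dense bins at 4 to 5 Mb and 7 to 9 Mb. The last peak before the window, at 9678601 to 9679724, overlaps TAS2R1, a bitter taste receptor gene, and had 76 tags at 3.06-fold. The first inside, at 10010659 to 10011254, had 30 tags at 6.55-fold and lay 107080 bp from TAS2R1. The next, at 10379630 to 10382862, lay in MARCHF6, which encodes a ubiquitin ligase of the endoplasmic reticulum, with 217 tags at 3.95-fold. At the other end the bin at 46 to 47 Mb still held 36 of the peaks and no list 2 peak. Neither list had a peak between 47 and 50 Mb, where the centromere lies. The last peak inside, at 46421910 to 46422561, had 40 tags at 6.55-fold. The first list 1 only peak beyond, at 51338664 to 51339254, had 27 tags at 5.1-fold and lay 44489 bp from ISL1, a homeobox gene. List 2 began again at 50292626. Past the window list 1 only peaks stood at 3.67 per Mb (482 peaks).

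The overlap rule left some close cases. The nearest miss was a peak at 19471671 to 19472963, inside CDH18 with its centre 1021 bp from one end of the gene. It lay 12 bp from a list 2 peak, and 25 of the 1262 lay within 500 bp of one. On the other side of the rule, the list 1 peaks with the smallest overlap shared 23 bp (69857 bp from FGF10) and 67 bp (inside ADAMTS12) with list 2. Most peaks were far from this limit. The median distance to a list 2 peak was 29140 bp, 292 (23.1%) lay within 10 kb, and 181 (14.3%) lay over 100 kb away, up to 742402 bp.

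Neighbouring peaks stood close together, with a median of 11090 bp between centres (95% order-statistic interval 9886 to 12650 bp). The lowest spacing was 654.5 bp and the quartiles were 3960 and 27430 bp, so 30.3% of neighbours lay within 5 kb and 47.6% within 10 kb. List 1 only peaks between 0 and 10 Mb were spaced by a median of 51900 bp (25480 to 74110), with 20.4% of neighbours within 5 kb and 24.5% within 10 kb. Past the window the median was 152600 bp (131800 to 182500), with 3.12% and 5.61%. List 2 peaks of the region were spaced by 50790 bp (42930 to 61680). The coefficient of variation of the spacing was 2.85, against 1.61 below the region and 1.4 beyond it, so the spacing was more uneven inside it. Grouping neighbours within 10 kb gave 620 groups, of which 326 were single peaks. The 294 groups of 2 or more held 936 peaks (74.2%), against 11.2% beyond the region, where the longest group had 3.

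**Figure D2:**
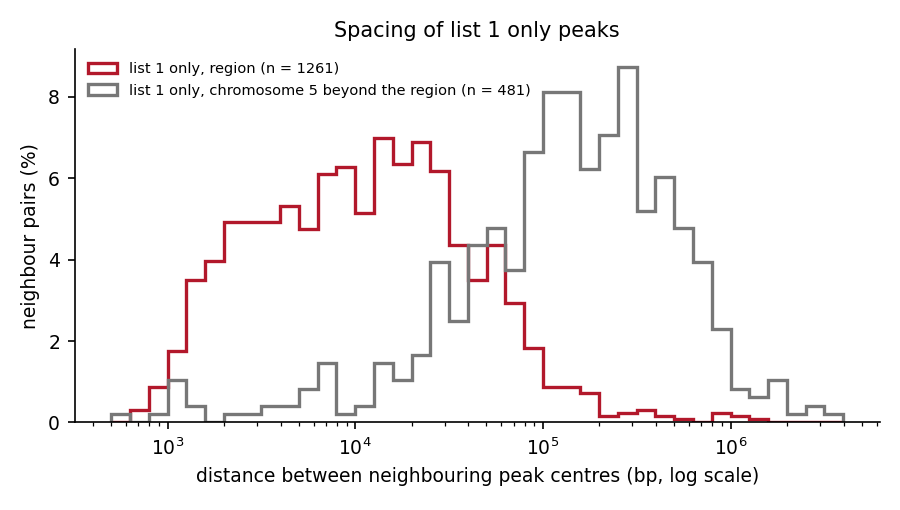
Distance between neighbouring peak centres (bp, log scale) as a percent of neighbour pairs, for list 1 only peaks in the region (n = 1261 pairs) and on chromosome 5 beyond it (n = 481 pairs). The median is 11090 bp in the region and 152600 bp beyond it.

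The longest group had 12 peaks between 30077025 and 30121616, over 1 Mb from the nearest protein-coding gene, CDH6. These peaks held 1058 tags and covered 36.6% of its 44.6 kb. The next were 11 peaks between 27375030 and 27413785, 336444 bp from CDH9, and 10 peaks between 46049878 and 46082523. A pair of groups lay inside CDH12, with 9 and 8 peaks. At the other extreme 7 gaps exceeded 500 kb. The widest, 1355 kb from 13745998 to 15101337, held 5 protein-coding genes, 17 list 2 peaks and 3 shared list 1 peaks. All 7 gaps held protein-coding genes (3 to 6 each) and list 2 peaks (6 to 17 each). In all, the peaks covered 1728 kb, or 4.32% of the region, with 110345 tags, and 11.8% of the bin at 27 to 28 Mb.

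In shape the peaks were wide and modest in fold. Their median width was 1135 bp (95% interval 1104 to 1193), with a range of 306 to 7559 bp, against 677 bp (672 to 683) for the 7702 list 1 only peaks elsewhere. Over 1000 bp lay 60.4% of them, against 11.9% elsewhere, and over 2000 bp 16.2% against 0.571%. They held a median of 70 tags (68 to 74, range 20 to 654) against 36 (35 to 36) elsewhere. Per kb of width the difference was small, 60.3 tags per kb (59.5 to 60.95) against 53.5 (53.3 to 53.7). The extra tags thus went with width, and the rank correlation of width with tags across the 1262 peaks was 0.949. Both come from the same peak boundaries.

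Fold over input went the other way. Its median was 4.755 (4.68 to 4.84, range 2.5 to 27.31), against 5.83 elsewhere, and 50 peaks (3.96%, 3.02 to 5.19%, Wilson) reached 8-fold against 10.1% (9.42 to 10.8%) elsewhere. The score, minus 10 times log10 of the caller's p, had a median of 74.9 against 63.1, and 26.6% (24.3 to 29.1%) reached 100 against 10.2% (9.59 to 10.9%). Large width and low fold were also seen outside the window and in the other list. The 50 list 1 only peaks between 0 and 10 Mb had a median width of 1280 bp (1093 to 1491) and a median fold of 4.675 (4.3 to 5.48). List 2 peaks of the region had a median width of 1079 bp (970 to 1192) against 872 bp (866 to 876) in list 2 elsewhere, and a median fold of 4.65 (4.47 to 4.81) against 5.635 (5.58 to 5.67). The 104 shared list 1 peaks of the region were wider than the 1262 (median 1612 bp, 1269 to 1902), denser (83.9 tags per kb, 80.4 to 88.0) and of higher fold (5.945, 5.45 to 6.61).

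**Figure D3:**
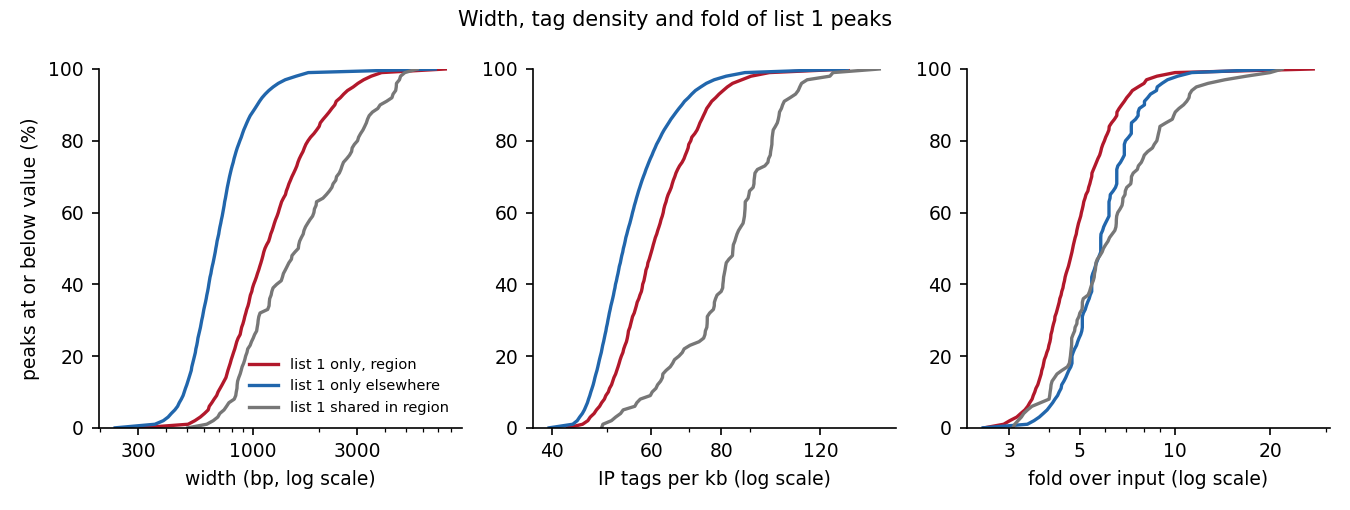
Percent of peaks at or below each width (bp), IP tag density (tags per kb) and fold over input, all on log axes, for list 1 only peaks in the region, list 1 only peaks elsewhere and shared list 1 peaks of the region. The peaks of the region sit to the right of list 1 only peaks elsewhere in width (medians 1135 and 677 bp) and to their left in fold (medians 4.755 and 5.83).

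The false discovery rate (FDR), which the caller estimates by calling peaks with the roles of IP and input exchanged, was 100% for 734 of the peaks (58.2%, 55.4 to 60.9%), against 77.8% of list 1 only peaks elsewhere. In list 2 the highest FDR in the region was 25.7%. At an FDR of 5% or less there were 11 peaks (0.872%, 0.487 to 1.55%), where 1.92% of all list 1 peaks, shared ones included, reach that level. Among list 1 only peaks elsewhere it was 5 of 7702 (0.0649%, 0.0277 to 0.152%). The rule used the same list, so nothing is read from these comparisons. Of the 11, 3 lay in NIPBL and 2 in CDH12, and these were chosen for naming after their values were seen.

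Width and tag density also differed within the region, with how crowded a peak's surroundings were. The 851 peaks with over 45 peaks, itself included, within 500 kb to either side had a median width of 1055 bp and 58.3 tags per kb. The 345 with 16 to 45 peaks had 1352 bp and 65.1 tags per kb, and the 66 with up to 15 had 1490 bp and 64.4 tags per kb. Median folds were 4.91, 4.42 and 4.325 in the same order. Peaks in crowded stretches were thus narrower and of higher fold than those in sparse ones. Over the 36 bins with a value, the rank correlation of peak number with median width was -0.618, as a description of bins that share 1 library pair.

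The strongest single peak lay between genes at 23192122 to 23193022, with 110 tags over 901 bp, 27.3-fold and an FDR of 0%. The nearest protein-coding gene, 314583 bp away, was PRDM9, which marks recombination sites in meiosis, and the nearest list 2 peak was 33485 bp away. The next highest, at 27537702 to 27538460, had 65 tags at 14.2-fold. Of the 10 peaks of highest fold, 7 lay between genes and 3 inside cadherin genes. A pair in CDH18, at 20308818 to 20310056 and 20310120 to 20310802, followed each other directly, with 88 tags at 12.7-fold and 83 tags at 12.5-fold. The third was in CDH12 at 21849358 to 21851073, with 129 tags at 12.4-fold. The other 5 had 63 to 91 tags at 10.2-fold to 12.0-fold. One of them, at 25084877 to 25086092, lay 454 bp from a list 2 peak.

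The peaks with the most tags were another kind, long and low. The highest count, 654 tags over 6819 bp at 5.21-fold, was in SPEF2, a gene of the sperm tail, at 35769422 to 35776240. The widest peak, at 13544325 to 13551883, was 7559 bp long with 545 tags at 3.37-fold, and lay 142224 bp from DNAH5, an axonemal dynein gene. C6, a terminal complement component made in the liver, held a peak of 446 tags at 4.64-fold (41190449 to 41197118). DAB2, an endocytic adaptor, held one of 411 tags at 4.37-fold, and GHR, the growth hormone receptor, one of 401 tags at 3.57-fold. None of these 5 was among the 10 of highest fold. The narrowest peak, 306 bp with 20 tags at 6.61-fold, lay in NIPBL.

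The background that the caller expected at a peak can be solved from its tag count and score when the peak is no wider than 1000 bp, a measure added after the data were seen. It is set from the input library and, at the least, from the genome-wide mean, which was 17.2 tags per kb in list 1 and 16.1 in list 2. At the 494 peaks with a value, 39.1% of the 1262, the median was 23 tags per kb (22.4 to 24.1). Elsewhere 6710 of the 7702 list 1 only peaks had a value, with a median of 17.8 (17.5 to 17.9). The comparison thus sets the narrower part of the region's peaks beside most of those elsewhere. Of the 494 only 15.2% (12.3 to 18.6%) were within 1% of the genome-wide mean, against 47.5% (46.4 to 48.7%) elsewhere. Across the 494 peaks fold was lower where this background was higher (rank correlation -0.475), and the caller computes fold from it.

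The same quantity stood higher in list 2. At the 190 of its 425 peaks of the region with a value the median was 41.1 tags per kb (38.9 to 44.2). This is 2.22 times the 18.5 (18.4 to 18.7) of list 2 elsewhere, where 16592 of 26900 peaks had a value. For list 1 only peaks the ratio was 1.29, and for shared list 1 peaks 1.53 (33.9 against 22.1 tags per kb). In 5 Mb windows with at least 5 values, the 10 windows from 0 to 50 Mb of chromosome 5 were the 10 highest of 578 windows in list 2, at 32.2 to 49.5 tags per kb against a genome median of 18. In list 1 the same windows ranked 6 to 194 of 547, at 20.4 to 31.6 against a median of 18.75. In the first window past 50 Mb the medians were 17.2 tags per kb in list 1 and 17.7 in list 2. At the 18 shared peaks of the region with a value in both lists, the median was 33.6 in list 1 and 38.7 in list 2, and 11 were higher in list 2. Elsewhere 803 of 2434 such peaks (33.0%) were higher in list 2. IP tag density also stood higher in list 2, at 92.2 tags per kb in the region against 55.2 elsewhere (ratio 1.67). The higher background began below the window, with a list 2 median of 46.3 between 0 and 10 Mb, where list 1 only peaks stood at 5.0 per Mb. Across 1 Mb bins of the region, the rank correlation of the number of list 1 only peaks with median list 2 background was -0.456 (36 bins). With the median background of all list 1 peaks it was -0.62 (33 bins). Some of these bin medians rest on 1 peak. The part of the background in the number of list 1 only peaks was not tested.

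**Figure D4:**
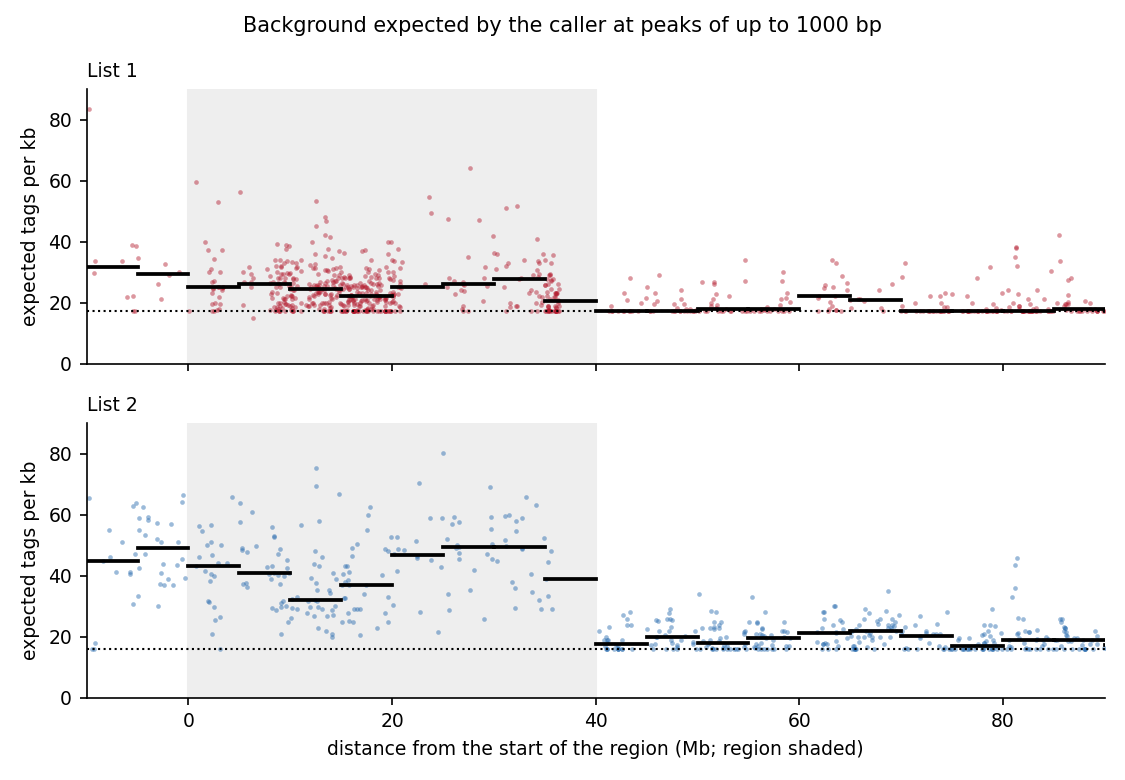
Background expected by the caller (tags per kb) at each peak of up to 1000 bp, by distance from the start of the region (Mb, region shaded), in list 1 (top) and list 2 (bottom). Bars are medians of 5 Mb windows and dotted lines the genome-wide means. Both lists fall to about the genome-wide mean past the region, from window medians inside it of 20.4 to 27.9 in list 1 and 32.2 to 49.5 in list 2.

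The ends of protein-coding genes were nearly free of these peaks. None of the 1262 had its centre within 1 kb of one, which allows a share of up to 0.238% if 3 counts are taken as the limit and 0.304% by the Wilson interval, while 1.06% of the region's bases lie there. In the same stretch 25 of 425 list 2 peaks (5.88%) and 1 of 104 shared list 1 peaks were at gene ends, and elsewhere 7.91% (7.33 to 8.53%) of list 1 only peaks. Taken by summit in place of centre, 4 of the peaks (0.317%) were at gene ends. They lay at CDH18, CDH9, SELENOP, a liver-secreted selenium carrier, and FGF10, a growth factor gene, with summits 288 to 819 bp from the end. From start sites of protein-coding genes, which the promoter table gives with strand, the count within 1 kb was again 0 of 1262, against 21 of 425 list 2 peaks (4.94%, 3.25 to 7.44%) and 6.7% of list 1 only peaks elsewhere. Inside protein-coding genes lay 342 of the peaks (27.1%, 24.7 to 29.6%), where 31.2% of the bases are, and between genes 920 (72.9%, 70.4 to 75.3%), where 67.7% are. The shares of bases count the whole region, with 47 to 50 Mb, where neither list had a peak and no protein-coding gene lies. None of the 9 annotated miRNA hairpins of the region was overlapped.

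Peak number was highest where genes are few. In the 37 bins from 10 to 47 Mb, the 9 with no protein-coding gene centred in them held a median of 57 peaks (32 to 93). The 17 with 1 to 4 genes held a median of 39 (0 to 82), and the 11 with 5 or more held 12 (1 to 33). List 2 peaks had medians of 13, 12 and 10 in the same bins. The rank correlation across bins with gene number was -0.716 for the list 1 only peaks. With the percent of a bin inside such genes it was -0.559, and with list 2 peaks of the same bin 0.13. Genes were counted by their centre, so a bin with none can lie partly inside one (52.9% of the bin at 19 to 20 Mb). All 37 bins come from 1 pair of libraries per list, and no test was made.

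**Figure D5:**
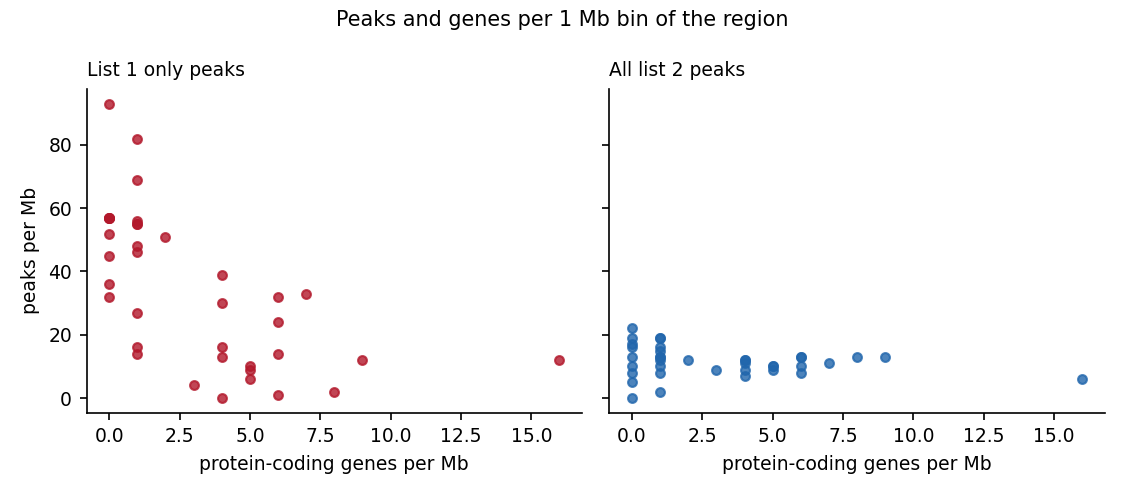
Peaks per Mb against protein-coding genes per Mb in the 37 bins of 1 Mb from the start of the region to its last peak, for list 1 only peaks (left) and all list 2 peaks (right). List 1 only bins with no gene centred in them hold 32 to 93 peaks and those with 5 or more genes 1 to 33, while list 2 bins stay between 0 and 22.

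Of the 114 protein-coding genes of the region, 44 held at least 1 of the peaks and 50 a list 2 peak. Per length the peaks stood at 2.67 per 100 kb of gene and list 2 at 1.1. Cell adhesion genes held the most, with 171 peaks in 5 of 6 genes of the region (of 342 inside any gene), at 4.76 per 100 kb against 1.48 for list 2. EMB, the seventh of that list, lies outside the window. CDH18 held 80 peaks (7.24 per 100 kb) and CDH12 54 (4.9 per 100 kb). Both encode type II cadherins, adhesion proteins known mostly from the nervous system, and both genes are over 1 Mb long. CDH9 held 17 (10.8 per 100 kb) and CDH10 10 (6.33 per 100 kb). List 2 had 13, 17, 1 and 0 peaks in these genes in the same order. These cadherin genes all lie in the block from 15 to 31 Mb, which held 48.5 of the peaks per Mb, inside and between genes together. Their counts cannot be told apart from the density of that block. CTNND2, which encodes delta-catenin, held 10 peaks at 1.07 per 100 kb, and there list 2 was ahead with 19. CDH6 held none, beside 3 list 2 peaks.

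Outside the cadherins, NIPBL, which encodes the loader of cohesin onto chromosomes, held 19 peaks (10.0 per 100 kb) and no list 2 peak or shared peak at all. Its 3 peaks with an FDR of 5% or less had 104 to 159 tags at 5.48-fold to 8.26-fold. WDR70 held 14 (3.74 per 100 kb) and GHR 12 (4.02 per 100 kb), each with 3 list 2 peaks.

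Terminal complement genes held 10 peaks (3.64 per 100 kb), with 6 in C6, 4 in C9 and 0 in C7, all components of the membrane attack complex, against 4 of list 2. Genes of the nucleus, chromatin and RNA held 21 in 3 of 12 genes (3.74 per 100 kb), of which 19 were those of NIPBL, with 1 each in SUB1 and ZFR. Signalling and growth genes held 13 in 4 of 7 (2.96 per 100 kb), led by RICTOR, a subunit of the mTORC2 kinase complex, with 7 and FGF10 with 4. The receptor list held 15 in 4 of 8 genes (1.66 per 100 kb), 12 of them in GHR. Liver and mitochondrial metabolism held 9 in 4 of 9 (1.85 per 100 kb, beside 1.65 for list 2), with 4 in OXCT1, which acts in the use of ketone bodies, and 1 in SELENOP. Genes of cytoskeleton, cilia and trafficking held 16 in 5 of 10 genes at 0.751 per 100 kb, the lowest of the 7 lists, and none in TRIO or MYO10. These counts describe the lists, beside the 2.67 per 100 kb of all 114 genes, which include the listed genes. They follow where a gene lies in the region as well as its list, and no test was made on them.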

How the data were processed

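The authors deposited 2 lists of peaks, called per replicate and not pooled, with MACS 1.4.2 at a p of 1e-05, local windows of 1000 and 10000 bp and a genome size of 2.7e+09, per the file headers. Bowtie2, deepTools, HOMER and GRCh38 are named per the submitters' processing notes. The authors' deposited tag count of a peak is not scaled to depth. The deposited fold is a ratio of summit tags to expected tags, the score that the authors deposited is log10 of the p-value times minus 10, and the deposited FDR is a percent. After filtering, list 1 rests on 47165647 IP and 46345938 input tags and list 2 on 43942638 and 43562726, per the file headers.

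Peaks were joined by an overlap of 1 bp or more in Python 3.11.15 (numpy 2.4.6, pandas 2.3.3, scipy 1.17.1, matplotlib 3.10.9), and the steps were tested on simulated data. Genes, start sites and promoter sequences came from RefSeq tables of GRCh38.p14. The gene table has no strand, so a gene end can be 5′ or 3′. Expected background was solved from the Poisson p for peaks up to 1000 bp, after scaling tags to the input total and rounding up. The summit height it implies came out whole within 0.05 for 99.1% of such list 1 peaks and 99.2% of list 2 peaks. Intervals are 95% (Wilson for shares, binomial order statistics for medians). Peaks are not replicates, and no test was made.

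Named peaks and genes are the 10 of highest fold, the 5 with most tags, the widest, those nearest each boundary, the 8 genes with most peaks inside (9 with a tie, of which 1 is not reported here) and up to 4 genes of each of 7 lists. The members, lists and rules were chosen with earlier results of these data known. Peak sequences were not read, and other read-level signal was not used here.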

Additional observations from a re-analysis of the deposited data

How the results depend on the processing

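Counting a list 1 peak as shared only when 50% of it was covered, counting list 2 peaks within 500 bp as overlap, or keeping all list 1 peaks of the region (without replicate 2) left every value within its interval or 1.5 times, apart from the last dense bin, which moved from 126 to 46 Mb without replicate 2. Without replicate 1 no peak is defined. Summits in place of centres moved the gene-end share from 0 to 0.317%. With all annotated genes, 1.74% were at gene ends and 36.1% inside genes, and within 5 kb of a gene end lay 1.43%. With 2 Mb bins the first and last dense bins began at 12 and 46 Mb in place of 4 and 126.

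Thresholds moved most values. At 8-fold or more there were 50 peaks (1.25 per Mb, 2.997 times the rest of the chromosome), with medians of 351000 bp spacing, 992 bp width, 77.5 tags, 8.785-fold and 17.9 background tags per kb, and 34.0% inside genes. Dense bins then had no threshold, since the median bin outside held none. At a score of 100 or more there were 336 (8.4 per Mb, 19.8 times), with medians of 42700 bp, 1494 bp, 98.5 tags, 5.755-fold and 21.05 tags per kb, and the dense bins kept no threshold for the same reason. The density ratio ran from 2.997 to 19.8 over the 6 alternatives run on it. Since the region was chosen for its density, a ratio above 1 was set in advance and is no check.

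No paired analysis was possible because no test was made and a peak of the kind described here has no list 2 value. IP 2 tags at the 1262 positions, above or below the caller's threshold, are not analysed here.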
